A study of Mus musculus with 2 samples.

Results

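The nuclear genome of the mouse encodes most subunits of the mitochondrial respiratory chain and of the ATP synthase. Genes were taken by symbol: Ndufa, Ndufb, Ndufc, Ndufs and Ndufv (complex I), Sdha to Sdhd (complex II), Uqcr (complex III), Cox4 to Cox8 (complex IV) and Atp5 (complex V). Pseudogene symbols ending in -ps were left out, and a protein-coding transcript was required. The rule found 94 of the 55536 annotated genes, under 93 symbols because Atp5o has 2 gene identifiers. Of these, 85 were structural subunit genes and 9 were factors that are not part of the finished enzyme, namely Ndufaf1 to Ndufaf8 and Atp5s. The rule used names alone, so no measured value chose the genes. It leaves out Cyc1, the cytochrome of complex III, whose symbol differs.

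Complexes I and II pass electrons from NADH and succinate to coenzyme Q, complex III hands them to cytochrome c and complex IV hands them to oxygen. Complexes I, III and IV pump protons across the inner mitochondrial membrane, and the ATP synthase, complex V, uses the gradient to make ATP. Macrophages activated through TLR4 are known to shift towards glycolysis, and complex II is known there as the enzyme that oxidises succinate. The nuclear-encoded subunits are made as ordinary messenger RNAs, so a nuclear RNA library samples them near their synthesis.

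Both libraries are total RNA depleted of ribosomal RNA, from the nucleoplasmic fraction of primary bone marrow-derived macrophages of C57BL/6J mice. The labels also call this material a nuclear fraction. All cells received 100 ng/ml lipid A, a TLR4 agonist, for 12 h, then a washout of 12 h and a second exposure to 100 ng/ml lipid A for 90 min. The labels give 1 group with biological replicates 1 and 2, name the same donor entry for both, and give neither age nor sex. Replicate 1 started from 1 µg of RNA and replicate 2 from 500 ng, with a library size range of 250 to 400. Untreated cells were not analysed here, so the values describe restimulated macrophages and hold no effect of lipid A. With 2 libraries of 1 group no test was run, and the spread between them may be technical.

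Gene counts summed to 29400104 in replicate 1 and 17789543 in replicate 2. Respiratory chain genes held 28684 and 17784 of these counts, or 0.0976% and 0.1%, and the median gene of the set had 144 and 104 counts. The 10 macrophage markers were all at 1 TPM (transcripts per 1e6, a level per length) or more in both libraries, with summed levels of 1660 and 2300 TPM. No marker of neutrophils, T cells, B cells, erythroid cells, fibroblasts and endothelium, striated muscle or testis reached 1 TPM in both. In bulk RNA, fewer cells of a type and less RNA per cell cannot be told apart. The 13 respiratory chain genes of the mitochondrial genome, which are not members, took 3.22% of all TPM in replicate 1 and 12.5% in replicate 2. Nuclear-encoded protein-coding genes made up only 17.2% (replicate 1) and 17.8% (replicate 2) of summed TPM. All TPM levels, and the minimum of 1 TPM, are relative to a total that lies mostly on other genes. In the second quantification, a group of small RNA genes alone accounted for 45.8% (replicate 1) and 28.9% (replicate 2). The part of these shares in the TPM differences between the libraries was not tested.

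Promoters were examined first, since the set is known to be bound by the factors NRF1, GABP (an ETS family factor) and YY1. RefSeq windows on GRCm38.p6, from 250 bases before to 50 bases after a start, were matched by Entrez gene identifier for 76 of the genes (81 windows). The letters searched on both strands were GCGCATGC for NRF1, CCGGAAG for the ETS family and AAGATGGC for YY1. A stretch can hold the ETS and YY1 letters in overlap and then counts for both. The stretches printed here lie before both the RefSeq and the GENCODE start and touch no annotated exon. Ndufa6 and Uqcr11 are shown for a match, in capitals, to the NRF1 letters and the ETS letters. Cox7a2 and Cox7a1 are shown as a widely expressed and a muscle isoform gene of 1 subunit, neither with a match.
Ndufa6 (chr15:82354323-82354541, minus strand): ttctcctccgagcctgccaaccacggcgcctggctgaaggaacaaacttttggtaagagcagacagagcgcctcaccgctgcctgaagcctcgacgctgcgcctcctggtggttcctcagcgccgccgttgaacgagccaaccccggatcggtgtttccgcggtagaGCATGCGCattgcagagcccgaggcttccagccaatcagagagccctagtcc
Uqcr11 (chr10:80406831-80407071, minus strand): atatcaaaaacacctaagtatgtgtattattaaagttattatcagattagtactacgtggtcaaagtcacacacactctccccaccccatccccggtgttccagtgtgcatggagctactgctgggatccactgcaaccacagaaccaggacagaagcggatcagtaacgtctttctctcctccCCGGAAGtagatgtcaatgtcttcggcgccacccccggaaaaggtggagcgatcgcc
Cox7a2 (chr9:79759879-79760103, minus strand): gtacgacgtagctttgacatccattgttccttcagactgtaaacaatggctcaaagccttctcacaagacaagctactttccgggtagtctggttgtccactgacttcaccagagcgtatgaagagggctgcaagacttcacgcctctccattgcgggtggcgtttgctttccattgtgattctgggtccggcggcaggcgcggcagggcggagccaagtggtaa
Cox7a1 (chr7:30183921-30184143, plus strand): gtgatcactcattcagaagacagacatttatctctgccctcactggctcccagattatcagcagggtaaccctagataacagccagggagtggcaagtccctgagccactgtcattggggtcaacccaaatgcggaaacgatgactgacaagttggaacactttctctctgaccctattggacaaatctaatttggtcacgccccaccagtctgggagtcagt

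The NRF1 letters were found in 12 of the 81 windows (14.8%), the ETS letters in 18 (22.2%) and the YY1 letters in 11 (13.6%). At least 1 of the 3 was found in 34 windows (42.0%). Over all 32851 windows of the table the shares were 2.71%, 8.86% and 2.75%, and 13.3% for any. Windows of protein-coding genes at 1 TPM or more in both libraries lay between these for NRF1 (5.72%), YY1 (5.09%) and any (28.2%), and close to the set for the ETS letters (20.3%). A match describes letters and is neither a bound site nor a cause. The factors that read them were measured at 4.34 and 9.66 TPM in replicates 1 and 2 for Nrf1, 6.13 and 6.94 TPM for Gabpa, and 5.75 and 9.99 TPM for Yy1. Ppargc1a, the coactivator known for driving mitochondrial biogenesis, had 0 counts in both libraries, and 0.21 and 0.40 TPM under the second quantification.

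Respiratory chain genes were also close to other genes' starts. In GENCODE M21, 27 of the 94 (28.7%) had the start of a gene of the opposite strand within 1000 bases upstream, against 10.7% of nuclear-encoded protein-coding genes and 16.9% of those at 1 TPM or more in both libraries. The partner was protein-coding for 23 members (24.5%, against 6.76% and 11.2%). The starts of Ndufa7 and of the ribosomal protein gene Rps28 lay 10 bases apart, those of Ndufb9 and Tatdn1 18, those of Sdha and Ccdc127 29, and those of Sdhd and the import gene Timm8b 98. The genes are short, with a median span of 7419 bases against 17340 for protein-coding genes.

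Most of the set was detected. At 1 TPM or more in both libraries were 80 of the 94 genes (85.1%), against 38.6% of the 22015 nuclear-encoded protein-coding genes. The median over the genes of the mean TPM of both libraries was 6.08, with library medians of 5.94 and 6.66, while the median protein-coding gene lay at 0.215 TPM. That background includes many undetected genes, 7526 of them at 0 counts in both libraries. Protein-coding genes at 1 TPM or more in both libraries had a median of 7.025 TPM. The 75 structural subunit genes at that minimum had 7.575 TPM, so detected members lay near detected genes in general. Ranked among protein-coding genes, the set reached from percentile 34.7, shared by all genes at 0, to 98.2, with its median at 78.9. The set made up 0.427% of protein-coding genes and held 0.45% and 0.522% of their summed TPM in replicates 1 and 2. It was thus detected more often than protein-coding genes in general, and its share of their summed TPM was close to its share of the genes.

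The 14 genes below 1 TPM in at least 1 library fell into 3 kinds. They were the 8 tissue-restricted isoform genes of complex IV, the second Atp5o identifier, and a few lowly expressed genes. The last were the factor genes Ndufaf2, Ndufaf4, Ndufaf6 and Ndufaf7 and the complex I subunit gene Ndufc1, at 1.90 and 0.98 TPM. By mean TPM, 7 genes lay within 1.5-fold of 1 TPM, from 0.81 to 1.44.

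**Figure D1:**
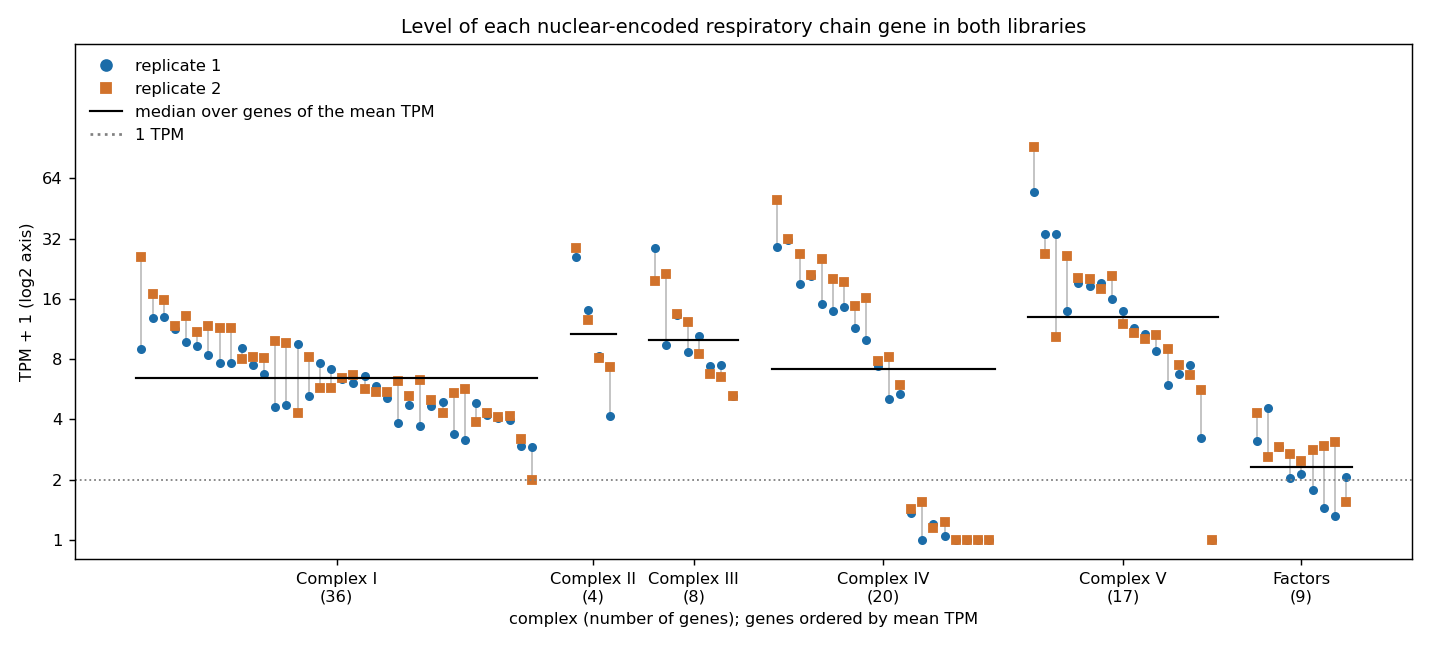
Level of all 94 respiratory chain genes, as TPM + 1 on a log2 axis, grouped by complex and ordered by mean TPM within it, with replicate 1 as circles, replicate 2 as squares and the median over genes of the mean TPM as a black line. Complex I genes stay within a narrow band, complex IV splits into 12 genes above and 8 below the dotted line at 1 TPM, and the 9 factors lie lowest, at a median of 1.32 TPM.

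With all their genes counted, complex V had the highest median and complex I the lowest. Complex V had 17 genes and a median of 11.9 TPM, with library medians of 12.9 in replicate 1 and 9.81 in replicate 2. Complex II followed with 4 genes and 9.72 TPM (10.1 and 9.30), and complex III with 8 genes and 8.95 TPM (8.05 and 9.34). Complex IV with all 20 genes had 6.14 TPM (5.40 and 7.04), and complex I with 36 genes had 5.42 TPM (4.98 and 5.26). The order of complexes II and III turned between the libraries, while complex IV lay above complex I in both. The medians of IV and I were still closer than the 2 library medians of IV were to each other. Under the authors' second quantification the medians were 6.8 for complex V, 6.59 for IV, 5.74 for both III and II, and 4.18 for I, so that the order of II, III and IV depended on the quantification. Without its 8 tissue-restricted isoform genes, complex IV had a median of 15.98 TPM, above complex V.

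Complex I is the largest enzyme of the chain, with core subunits that carry the flavin and the iron-sulphur clusters and accessory subunits around them. The SD of log2(TPM + 1) of its 36 genes was 0.63 against 1.33 over the whole set, which includes the undetected isoform genes. Over the 75 structural subunit genes at 1 TPM or more in both libraries it was 0.91. Complex III, at 0.69, and the factors, at 0.35, were narrow too, so this was not particular to complex I. In complex I 35 of the 36 genes were at 1 TPM or more in both libraries. The 7 core genes of the nucleus had a median of 6.84 TPM (6.61 and 7.22) and the 29 accessory genes one of 5.11 TPM (4.22 and 4.76), where the median of the means lies outside both library medians. Ndufs1 (chr1:63143596-63176833), the large iron-sulphur subunit of the hydrophilic arm, was at 11.9 TPM in replicate 1 and 15.9 in replicate 2. Ndufv1, which binds NADH and FMN, was at 6.61 and 4.76 TPM. Both were well above 1 TPM, and Ndufs1 lay above Ndufv1 in both libraries.

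Ndufa3, an accessory subunit gene, had the highest mean of complex I, and its libraries did not agree. It stood at 7.95 TPM in replicate 1 and 24.8 in replicate 2, from 114 and 130 counts. The authors' credibility intervals were wide, from 6.73 to 45.0 TPM and from 20.5 to 108 TPM, and the second quantification gave 8.33 and 13.7 TPM. In replicate 2, 70.0% of its TPM was placed on an isoform of 343 bases annotated for nonsense-mediated decay, against 36.7% in replicate 1. Its place at the top of complex I therefore rests on replicate 2. At the other end, Ndufc1, an accessory subunit gene, had 27 and 25 counts.

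Complex II has 4 subunits, all encoded in the nucleus, and oxidises succinate in the tricarboxylic acid cycle. Its flavoprotein gene Sdha (chr13:74322254-74350280) was at 24.8 TPM in replicate 1 and 27.7 in replicate 2. The iron-sulphur subunit gene Sdhb was at 13.0 and 11.5 TPM. The membrane anchor gene Sdhd was at 7.28 and 7.06 TPM and the other anchor, Sdhc, at 3.18 and 6.32. In both libraries the order was Sdha, Sdhb, Sdhd, Sdhc, with both catalytic subunit genes above both anchors. Under the second quantification Sdhc (3.49 and 5.36 TPM) lay above Sdhd (3.12 and 3.85), so the order of the anchors depended on it.

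All 8 complex III genes were at 1 TPM or more in both libraries. Uqcrh, the hinge protein gene, was highest by mean with 27.8 and 18.6 TPM, and Uqcrb followed with 8.42 and 20.3. The core protein gene Uqcrc1 was at 12.3 and 12.5 TPM, its partner Uqcrc2 was lowest at 4.24 in both, and Uqcrfs1, the Rieske iron-sulphur protein gene, was at 6.42 and 5.77. Uqcrh lay above Uqcrb in replicate 1 and below it in replicate 2, while Uqcrc1, Uqcrc2 and Uqcrfs1 held nearly the same level in both. In replicate 1 Uqcrc1 was also above Uqcrb. Under the second quantification Uqcrfs1 was lowest, at 2.47 and 3.16 TPM, and Uqcrc2 was at 3.99 and 6.36. Cyc1, outside the symbol rule, was at 6.16 and 6.47 TPM, close to Uqcrfs1.

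Complex IV is the enzyme with the most isoform genes, and these set its spread, with an SD of log2(TPM + 1) of 2.01. The 12 widely expressed genes, Ndufa4 among them, had library medians of 13.2 and 18.8 TPM, and all 12 were at 1 TPM or more in both libraries. Of the 8 genes known from muscle, germ cells or responses to low oxygen, none reached 1 TPM in both, and their median was 0.07 TPM. Cox7c (28.2 and 48.7 TPM) and Cox4i1 (30.5 and 30.9 TPM) were highest. Pseudogene copies of Cox7c held 11.5 and 8.08 TPM themselves, so reads may be divided between them and Cox7c.

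Within each isoform family, the gene that was detected was the one known from most tissues. Cox4i1 had 716 counts in replicate 1 and 395 in replicate 2, while Cox4i2, the lung isoform gene, had 1 and 3 counts (0.04 and 0.23 TPM). Cox6a1 was at 14.1 and 24.2 TPM, against 0.36 and 0.42 TPM for Cox6a2, the heart and muscle form, which had 8 and 5 counts. Cox6b1 was at 13.5 and 18.4 TPM with 209 and 179 counts, and Cox6b2, known from testis, had 0 in both. Taking 0 as at most 3 counts per library, Cox6b1 was at least 55-fold higher in replicate 1 and at least 40-fold higher in replicate 2. This bound covers counting error only: the authors' credibility interval for Cox6b2 reaches 1.27 and 2.35 TPM, which allows smaller folds. In each of these 3 families the detected gene still lay above the restricted one in both libraries.

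The remaining complex IV families showed the same layout. Cox7b was at 4.38 and 4.96 TPM and its germ cell counterpart Cox7b2 at 0 counts, at least 22-fold and 13-fold lower on the same floor. Cox8a was at 8.91 and 15.2 TPM, at least 34-fold and 31-fold higher than Cox8c with 0 counts, and Cox8b, the muscle form, had 0 and 2 counts. Ndufa4, once counted to complex I and now to complex IV, was at 4.07 and 7.24 TPM, at least 36-fold and 34-fold higher than Ndufa4l2, which is known to be induced by low oxygen and had 0 counts. The authors' interval for Ndufa4l2 reaches 0.44 and 0.82 TPM, above that floor too. All folds of this paragraph, those for Cox7b2 and Cox8c included, cover counting error only. The marker genes of muscle Acta1, Actn2 and Myh6 and of testis Odf1, Prm2 and Tnp1 were at 0 counts as well.

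The family of subunit 7A had 2 genes detected. Cox7a2l was at 10.4 and 13.7 TPM and made up 61.2% and 66.2% of the TPM of the family. Cox7a2 was at 6.41 and 6.84 TPM. Cox7a1, the muscle form, had 2 counts and 1 count, or 0.20 and 0.15 TPM. The order of the first pair turned under the second quantification, where Cox7a2 (8.35 and 9.82 TPM) was above Cox7a2l (4.38 and 7.74). That quantification also gave 0.55 and 2.32 TPM for Cox7a1, so its level in replicate 2 depended on the method.

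**Figure D2:**
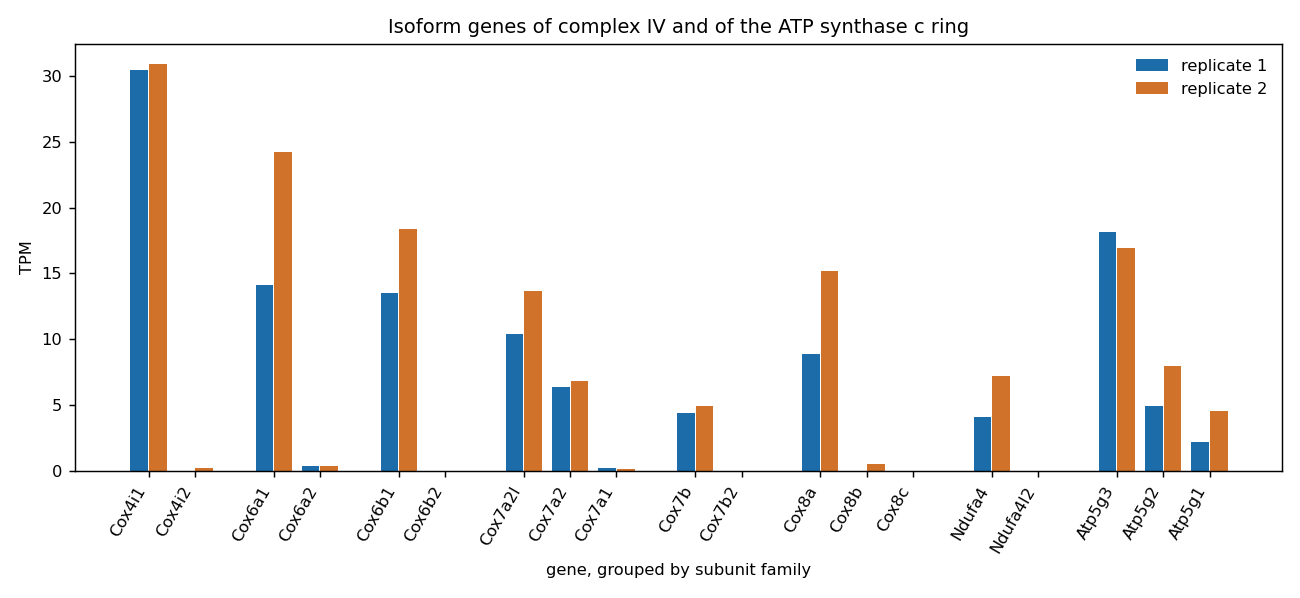
TPM of the isoform genes of complex IV and of the ATP synthase c ring in replicate 1 (blue) and replicate 2 (orange), grouped by subunit. Within the complex IV families bars are visible for 1 gene, or for Cox7a2l and Cox7a2, with the restricted forms at or near 0, whereas all 3 c ring genes are visible.

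The ATP synthase consists of a catalytic F1 head, a ring of c subunits and the stalks and membrane parts that join them. Atp5b (chr10:128083273-128090391), the catalytic beta subunit gene, was the highest of all 94 genes at 53.7 TPM in replicate 1 and 90.2 in replicate 2. Atp5a1 (chr18:77773729-77782869), the alpha subunit gene, was next by mean in the complex at 32.6 and 25.9 TPM. Atp5k, described further on, lay just above it in replicate 1, and under the second quantification both Atp5j (mean 19.6 TPM) and Atp5k (15.9) were above it (14.5). The genes for gamma, delta and epsilon were lower than Atp5b and Atp5a1. Atp5c1 was at 7.74 and 9.52 TPM, Atp5d at 5.72 and 6.47, and Atp5e at 10.4 and 9.81. The 5 F1 genes together held 42.2% and 49.0% of the TPM of complex V.

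The c ring is made of 1 protein that 3 genes encode, and all 3 were detected. Atp5g3 was at 18.2 and 16.9 TPM, Atp5g2 at 4.93 and 7.96, and Atp5g1 at 2.22 and 4.59. Atp5g3 held 71.8% and 57.4% of the TPM of this family, Atp5g2 19.5% and 27.0%, and Atp5g1 8.77% and 15.6%. The order was the same in both libraries. Under the second quantification Atp5g1 (1.60 TPM) lay above Atp5g2 (1.43 TPM) in replicate 1. Pseudogenes alike to Atp5g2 held 2.12 and 4.75 TPM, so its level is uncertain. The second gene identifier of Atp5o, the OSCP subunit gene of the stalk, had 0 counts, while the main one was at 9.64 and 9.06 TPM.

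The 9 factor genes were the lowest group, with a median of 1.32 TPM (1.07 and 1.80), and 5 of them were at 1 TPM or more in both libraries. Highest by mean were Ndufaf3, at 2.12 and 3.28 TPM, and Ndufaf8, at 3.55 and 1.58. Ndufaf6 was lowest by mean at 1.07 and 0.55 TPM, from 24 and 9 counts. No factor gene reached the median of the structural subunit genes, 6.42 TPM. The 43 assembly factor genes whose symbols fall outside the rule had a median of 2.89 TPM (2.55 and 3.0). Among these, 31 were at 1 TPM or more in both libraries, led by mean by Cox17, the copper carrier for complex IV, at 34.0 and 26.6 TPM. In replicate 2 Cox20, a complex IV assembly factor gene, was slightly above it, at 27.1 TPM.

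Of the other metabolic lists, 2 had medians near that of the set, glycolysis lay above it and the rest below. The 18 genes of the tricarboxylic acid cycle had a median of 6.63 TPM (5.52 and 7.75) and were all at 1 TPM or more in both libraries. The 17 glycolysis genes had a median of 15.1 TPM (13.8 and 16.5), with 15 at 1 TPM or more, led by the hexokinase gene Hk3 at 211 and 84.0 TPM. The 12 widely expressed complex IV genes alone were near this, at 15.98 TPM (13.2 and 18.8). Electron carriers and coenzyme Q synthesis (19 genes) had 3.18 TPM, with 16 at 1 TPM or more, and the small mitochondrial ribosomal subunit (29 genes) had 2.41 TPM, with 25. The 16 regulators of respiratory gene transcription had 6.77 TPM, with 12 at 1 TPM or more. These medians are descriptions of 2 libraries, and the differences between lists were not tested.

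**Figure D3:**
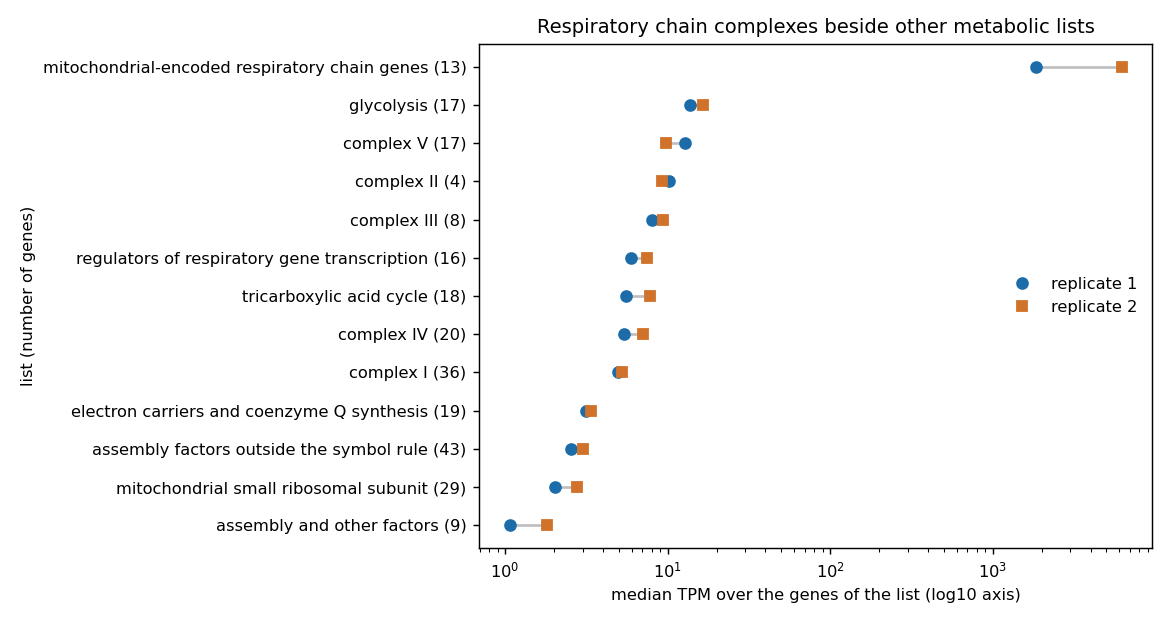
Median TPM over the genes of each list on a log10 axis, with replicate 1 as circles and replicate 2 as squares. With all their genes counted, restricted isoforms included, the 5 complexes lie between 4.98 and 12.9 TPM, below glycolysis and above the assembly factors. The 13 mitochondrial-encoded genes stand apart at 1848 and 6236 TPM.

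The same complexes hold subunits from the mitochondrial genome, and these moved apart from the nuclear-encoded ones between the libraries. The 13 mitochondrial-encoded genes had a median of 1848 TPM in replicate 1 and 6236 in replicate 2. The libraries were compared by the log2 ratio, replicate 2 to replicate 1, of counts scaled with TMM, which evens out library composition. Its median was 1.31 over the 13 genes, of which 12 were higher in replicate 2 and 8 more than 2-fold. Over the 85 nuclear-encoded genes whose counts averaged 10 or more, the median was -0.09, with 40 higher and 45 lower in replicate 2. With TMM the nuclear-encoded set lay near the protein-coding median of -0.05, where 5222 of 11355 genes were higher and 6133 lower. The split was uneven by other measures, with 59 higher and 24 lower by TPM and 25 higher and 63 lower under the second quantification. Protein-coding genes moved in the same directions by these measures, with medians of 0.28 and -0.09.

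How many respiratory chain genes differed between the libraries by more than 2-fold depended on the measure. By TMM-scaled counts there were 4 of 85 (4.71%), against 8.69% of 11355 protein-coding genes and 13.4% of 14831 genes of all kinds. Higher in replicate 2 were 2 genes (background 3.67% of protein-coding genes) and lower were 2 (background 5.02%). By the ratio of TPM there were 12 of 85 (14.1%), 9 higher and 3 lower, against 9.87% of protein-coding genes, so the set then lay above the background and not below it. The sign of the set's median depended on the scaling, with 0.07 under library totals, 0.16 for the ratio of TPM and -0.28 under the second quantification. In each of these the protein-coding median lay higher, at 0.11, 0.28 and -0.09. Relative to the protein-coding median the set was at -0.04 with TMM, -0.04 with library totals, -0.12 by TPM and -0.19 under the second quantification.

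Atp5k and Ndufa2 were more than 2-fold lower in replicate 2 under TMM scaling and under all 7 alternatives tried. Atp5k (chr5:108433244-108434448), the e subunit gene of the ATP synthase membrane part, had 355 counts in replicate 1 and 62 in replicate 2, or 32.9 and 9.32 TPM. Its log2 ratio was -1.95, with a 95% counting interval (exact binomial) from -2.37 to -1.57. Ndufa2 (chr18:36742332-36744557), an accessory subunit gene of the NADH-oxidising part of complex I, had 145 and 30 counts, or 8.47 and 3.29 TPM. Its log2 ratio was -1.70, with an interval from -2.33 to -1.14. Both intervals lie below -1, and they cover counting error only.

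The genes on the higher side were factors with few counts. Ndufaf2, a factor for a late step of complex I assembly, had 7 and 20 counts and a log2 ratio of 1.98, with an interval from 0.77 to 3.56. Ndufaf7, a methyltransferase that modifies a core subunit of complex I, had 30 and 42 counts and a ratio of 1.03, with an interval from 0.33 to 1.77. Both intervals include 1, and Ndufaf7 was not past 2-fold with DESeq2 size factors, with a larger prior count or under the second quantification. Next on either side came Uqcrb at 0.90 and Uqcrh at -0.94, both of complex III. Both of their intervals reach past 2-fold, from 0.57 to 1.25 and from -1.20 to -0.68.

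**Figure D4:**
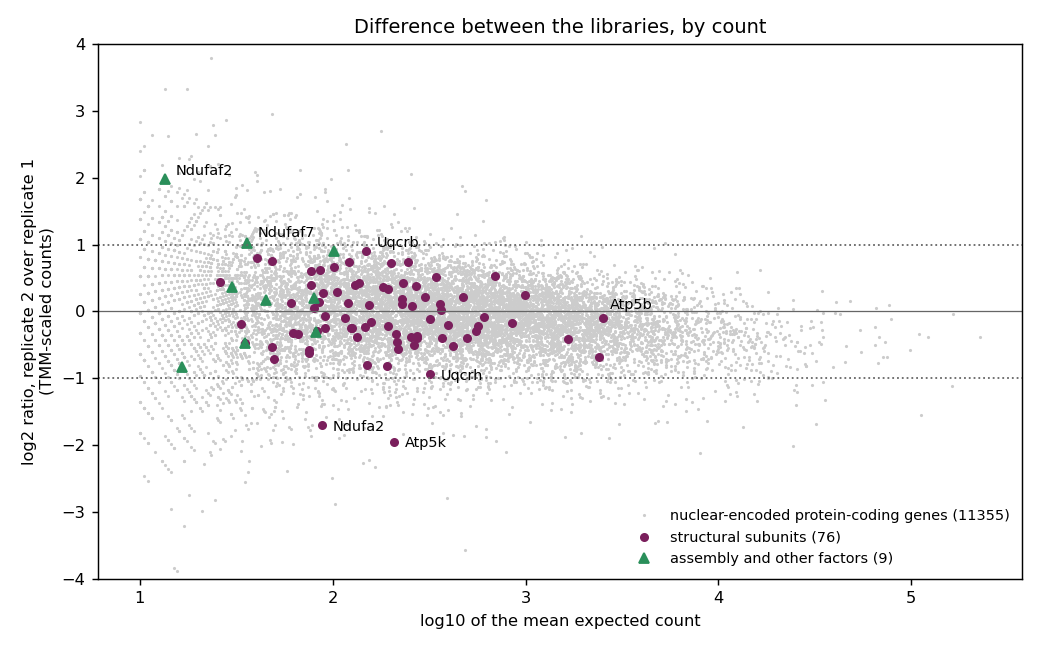
Log2 ratio of replicate 2 over replicate 1 against the log10 of the mean expected count, for 11355 protein-coding genes (grey), 76 structural subunit genes (purple circles) and 9 factors (green triangles). Dotted lines mark 2-fold, 15 protein-coding genes lie outside the axis, and only Atp5k, Ndufa2, Ndufaf2 and Ndufaf7 among the members lie beyond the lines.

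By complex and TMM-scaled counts, the median log2 ratio was -0.01 for complex I, with 18 genes on each side, -0.41 for complex II, -0.45 for complex III, 0.08 for complex IV and -0.13 for complex V. In complex III 6 of 8 genes and among the core genes of complex I 6 of 7 were lower in replicate 2, none of them past 2-fold. Among the 11355 protein-coding genes tested, 6133 were lower in replicate 2 and 5222 higher, so lower values were the more common ones in the background too. TPM also depends on the effective length, which changes with the isoforms to which reads are assigned. Among the 80 genes at 1 TPM or more in both libraries it differed by more than 1.5-fold for 4, namely Cox5b, Ndufb2, Ndufb7 and Ndufaf8. For Cox5b, a subunit gene of complex IV, the log2 ratio was -0.46 by TMM-scaled counts and 0.57 by TPM. For Ndufb7, an accessory subunit gene of complex I, it was 0.11 by counts and -0.37 by TPM.

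Nuclear RNA holds transcripts that are not fully spliced, and the annotation lists isoforms that keep an intron. The share of a gene's TPM on such retained-intron isoforms could be computed for 48 of the genes, which have an annotated isoform of that kind, a protein-coding one and at least 1 TPM in both libraries. Its median was 28.2%, with library medians of 26.7% and 27.2%, against 30.9% over 5519 protein-coding genes chosen alike. More than 50% was reached by 10 of the 48 genes (20.8%), against 20.4% of the background, a share close to the background. Of the 10, 8 were above 50% in both libraries.

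The share varied widely between members, from 2.63% to 85.6%. Highest by mean was Ndufb4, an accessory subunit gene of complex I, at 78.0% in replicate 1 and 93.1% in replicate 2, from 82 and 73 counts. Its pseudogene copies held 3.41 and 5.64 TPM, more than the gene itself, and their part in this share was not tested. Ndufab1, the mitochondrial acyl carrier protein gene, was at 79.1% and 76.1%, above Ndufb4 in replicate 1. Atp5j, the coupling factor 6 gene of the ATP synthase stalk, was at 77.1% and 73.0%. Next were Ndufa6 at 70.1% and 69.5% and Ndufa10 at 58.9% and 65.3%, both accessory subunit genes of complex I. In all 5 both libraries were above 50%. At the other end Cox6a1 was at 2.83% and 2.44%, although it too has a retained-intron isoform annotated.

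By complex, the median share was 30.1% for 20 genes of complex I, 26.4% for 10 of complex V, 19.8% for 4 of complex III and 16.6% for 10 of complex IV. By the mean of both libraries 7 of the 20 complex I genes were above 50%, against 20.4% of the background. Only 5 of these 20 were above 50% in both libraries. None of the 10 complex IV genes was above 50% by the mean. Cox7b, a subunit gene of complex IV, was above 50% in replicate 1, at 54.4%. The second quantification put Cox4i1 at 51.9% and 59.5%, against 24.0% and 16.7% here. Only 1 gene of complex II could be measured, Sdha, at 32.6% and 43.3%. The shares of a few genes moved far between the libraries, among them Ndufaf8 at 71.8% and 0%, from 47 and 23 counts. The retained-intron isoforms overlap exons of the spliced ones, so the split rests on the model that assigns shared reads.

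**Figure D5:**
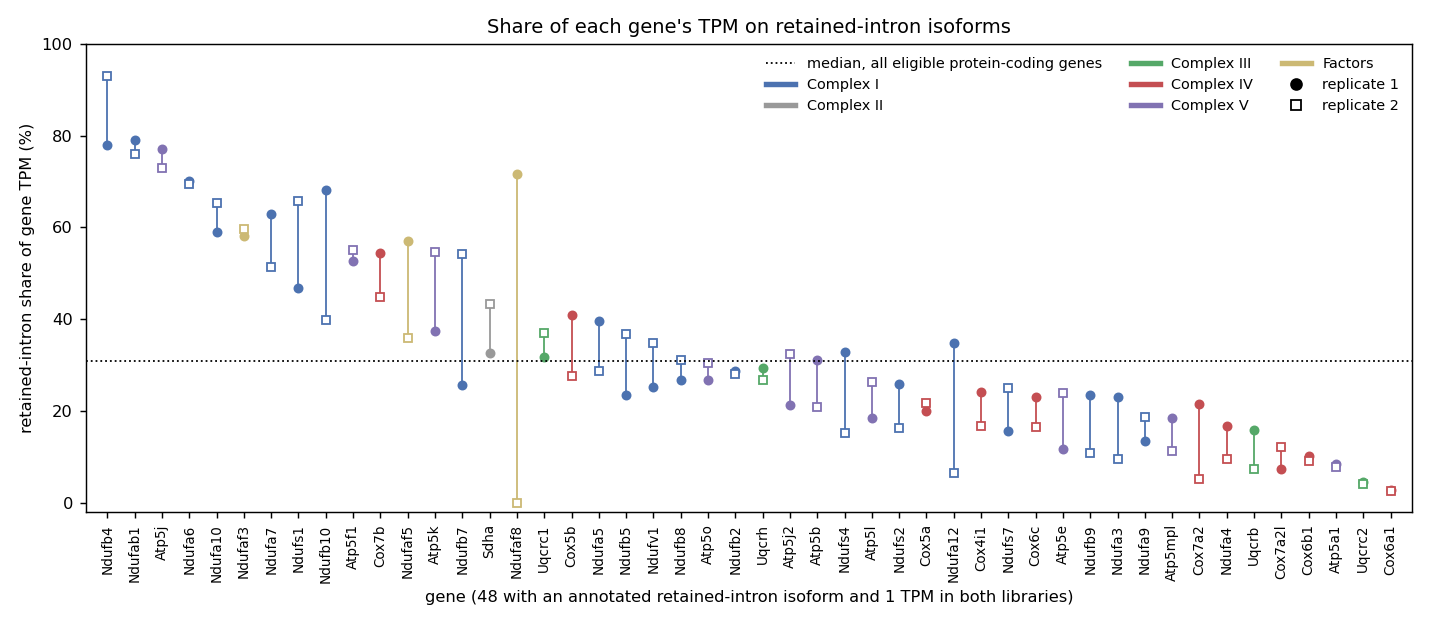
Percent of each gene's TPM on retained-intron isoforms, for the 48 genes that could be measured, ordered by mean share, with replicate 1 as filled circles, replicate 2 as open squares and colours for the complexes. The dotted line is the background median of 30.9%, and complex IV genes, in red, are all below 50% by mean.

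Near-identical copies limit some of these levels. Of the members, 23 had at least 1 annotated pseudogene matching a coding transcript at 95% identity or more over 100 bases or more, 45 pseudogenes in all. Of the 45, 29 had 0 counts in both libraries and 4 were at 1 TPM or more in both. For Ndufb4, Ndufa12, Cox7c and Atp5g2 the copies together exceeded 10% of the gene's own TPM in both libraries. Ndufb4 itself was at 2.82 and 5.22 TPM. In addition, exons of 33 members overlapped those of another gene, and whether counting used strand is not given in the sources used here. How common such copies and overlaps are among all protein-coding genes was not counted, so these numbers describe limits and no trait of the set.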

How the data were processed

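Expected counts, TPM and isoform percentages were taken from the authors' deposited gene and transcript tables, 1 library per table, whose column names are those that RSEM writes, per the file headers. A second set of deposited tables has the columns of kallisto, an estimated count and TPM per transcript, summed here per gene. Per the labels and the listing deposited beside the tables, the assembly is mm10 and the annotation GENCODE M21. Which aligner, software versions and strand setting were used is not given in the sources used here.

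Expected counts were rounded. Entries that name no gene (0.766% and 0.272% of counts) were left out. TMM factors from edgeR 4.0.16 (R 4.3.3) were 0.944 and 1.06, over genes whose counts averaged 10 or more. Log2 ratios used a prior count of 0.5, and a log2 ratio beyond 1 counted as a difference. The log2 ratio step was tested on simulated counts with counting error as their only spread. Changes were placed in well-counted genes, so genes with few counts were not covered. The retained-intron share is a percent of deposited transcript TPM. Levels are medians over genes of the mean TPM of both libraries, which can lie outside both library medians, and log2(TPM + 1) was used for spread. A count of 0 was read as at most 3 counts, and as the labels mention no molecular identifiers, intervals and floors reflect counting error alone. Pseudogene copies were found with BLAST+ 2.17.0. Sequences are from RefSeq on GRCm38.p6, which has the coordinates of mm10.

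No test between conditions was possible with 1 group of 2 libraries, so no p-value is given. Members, lists, roles and alternatives were chosen with earlier results of these data known. Named are the isoform families, complex II, 6 core or catalytic genes, the 2 highest and the lowest genes of each complex and of the factors, the 3 largest ratios each way and all past 2-fold, and the 5 highest retained-intron shares. Genes named outside these (Cyc1, the remaining F1 genes, Cox20, the genes of shifting effective length, promoter, neighbour and pseudogene examples, the regulators, Ndufaf4 and Cox6a1 as an end of a range) were chosen after their values were seen. Alternatives were the second quantification, other scalings, filters and pseudocounts, and each library alone.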

Additional observations from a re-analysis of the deposited data

How the results depend on the processing

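No paired analysis was possible because both libraries belong to 1 group. The values describe 2 libraries, and depth limits the restricted isoforms and the factor genes, which rest on 0 to 113 counts. Of the alternatives for the 12 summary values, 32 stayed within the spread between the libraries (or within 1.5 times, for counts) and 34 did not. With the second quantification the median was 4.65 TPM over the set, 4.18 for complex I, 5.74 for complex II, 5.74 for complex III and 6.8 for complex V, the SD of log2(TPM + 1) was 1.19, the median log2 ratio -0.28 and the median retained-intron share 31.5%. Rescaling TPM over protein-coding and long non-coding genes multiplies every level, giving 28.3 TPM over the set, 25.2, 45.2, 41.6, 28.5 and 55.4 for complexes I to V, 6.11 for the factors and an SD of 1.80. Leaving out 1 library gave 5.94 to 6.66 TPM over the set, 4.98 to 5.26 for complex I, an SD of 1.34 to 1.37 and a retained-intron share of 26.7% to 27.3%. Genes at 1 TPM or more had a median of 6.73 TPM and an SD of 0.98, where protein-coding genes at that minimum had a median of 7.025 TPM. The SD was 1.30 over structural subunits and 2.02 with a pseudocount of 0.1. At a minimum of 5 TPM 48 genes remained detected, against 80. The median log2 ratio was 0.074 under library totals and 0.16 by TPM. The number past 2-fold was 12 by TPM (14.1%, against 9.87% of protein-coding genes), 2 at a mean count of at least 50 and 2 over structural subunits, against 4. The retained-intron share was 35.3% over all isoforms that are not protein-coding, 26.0% at 5 TPM or more and 26.9% over structural subunits. For the named genes, 361 alternatives stayed within the spread, or for log2 ratios within the counting interval, and 121 did not. Most of the 121 fell under rescaled TPM, the second quantification or the ratio of TPM. Many of the 361 could not have moved. Leaving out 1 of 2 libraries stays within their spread by construction (48 TPM values for each library). Other count filters leave a tested gene's ratio as it was (40 and 35 values). The 361 is therefore no measure of stability. No called gene changed direction.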
